A study of Mus musculus with 60 samples.

Results

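The 40 genes described here encode factors that build ribosomes in the nucleolus, together with the enzymes Odc1 and Srm of polyamine synthesis. They were found by symbol from a list of names, 40 of 50559 genes in the count table. All 40 had enough counts to be tested, among 15083 genes tested in all. Polyadenylated RNA was sequenced in 60 libraries of mouse embryonic stem cells, from 4 lines at 5 times with 3 biological replicates each. The lines were 1A wild type, V19 wild type (derived independently), 1A EZH2 knockout and 1A EED knockout, in which Cas9 editing disrupted a subunit of Polycomb repressive complex 2. Each knockout is represented by a single line, so genotype and line cannot be told apart. All groups grew in serum with LIF. Those sampled at 12, 24, 48 and 96 h also received 2i, the GSK3 inhibitor CHIR99021 at 3 µM with the MEK inhibitor PD0325901 at 1 µM, renewed daily, and the 0 h groups had no 2i.

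Ribosome biogenesis starts with transcription of ribosomal DNA by RNA polymerase I. Small nucleolar ribonucleoproteins (snoRNPs) then modify the precursor RNA, and processing complexes cut it and assemble it with ribosomal proteins into small and large subunits. Rapidly dividing embryonic stem cells invest heavily in this work. Many of its genes, and Odc1, are known targets of Myc transcription factors, which bind the E-box CACGTG and variants such as CACGCG. Odc1 makes putrescine from ornithine, and Srm turns putrescine into spermidine, which is needed for translation and growth.

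Promoters of 33 of the 40 genes were matched in RefSeq (GRCm38.p6), each as 250 bases before and 50 bases from the start site. CACGTG, which is its own reverse complement, was present in 7 of the 33 (21.2%), against 7.24% of 27025 promoters of the same length. Its variant CACGCG, searched on both strands, was present in 39.4% against 9.36%, and CCGGAAGT, the core bound by ETS factors, in 27.3% against 4.0%. The 27025 promoters were not matched to these genes in G and C content or in expression. The part of either in these shares was not tested. The 7 stretches around CACGTG are shown, with the E-box in capitals, because they hold the letters that Myc proteins recognise. The first base of the E-box lay 60 bases before the start site in Nop2, and at positions 2 (Pes1), 15 (Utp4), 17 (Wdr43), 28 (Ltv1), 34 (Grwd1) and 40 (Mybbp1a) after it, with the start site counted as 0.

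Nop2 (chr6:125131811-125131840, plus strand): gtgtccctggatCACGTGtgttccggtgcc
Pes1 (chr11:3963965-3963994, plus strand): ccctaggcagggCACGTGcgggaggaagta
Utp4 (chr8:106893643-106893672, plus strand): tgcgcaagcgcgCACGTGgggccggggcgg
Wdr43 (chr17:71616220-71616249, plus strand): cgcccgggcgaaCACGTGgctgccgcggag
Ltv1 (chr10:13193092-13193121, minus strand): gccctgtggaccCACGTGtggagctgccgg
Grwd1 (chr7:45830740-45830767, minus strand): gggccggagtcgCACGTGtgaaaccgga
Mybbp1a (chr11:72441355-72441376, plus strand): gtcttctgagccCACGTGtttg

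The 200 bases before the start site are shown for Odc1, Nolc1 and Gar1, whose levels are described further on, and for Nop2, the 1 gene of the 33 with CACGTG before its start site. Capitals mark CACGTG (in Nop2), CACGCG or its reverse complement CGCGTG (in Odc1 and Nolc1), and ACTTCCGG, the reverse complement of CCGGAAGT (in Gar1). A match is a description of the letters and no evidence that a factor binds there.

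Odc1 (chr12:17544673-17544872, plus strand): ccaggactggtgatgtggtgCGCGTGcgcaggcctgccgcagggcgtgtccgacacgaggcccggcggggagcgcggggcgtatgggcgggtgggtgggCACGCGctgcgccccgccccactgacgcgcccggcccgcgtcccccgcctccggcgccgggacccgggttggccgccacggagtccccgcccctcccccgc
Nolc1 (chr19:46075647-46075846, plus strand): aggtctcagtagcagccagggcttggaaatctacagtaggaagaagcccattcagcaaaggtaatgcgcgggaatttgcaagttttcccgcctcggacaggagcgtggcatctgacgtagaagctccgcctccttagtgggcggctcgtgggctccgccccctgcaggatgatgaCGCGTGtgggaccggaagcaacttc
Gar1 (chr3:129831397-129831596, minus strand): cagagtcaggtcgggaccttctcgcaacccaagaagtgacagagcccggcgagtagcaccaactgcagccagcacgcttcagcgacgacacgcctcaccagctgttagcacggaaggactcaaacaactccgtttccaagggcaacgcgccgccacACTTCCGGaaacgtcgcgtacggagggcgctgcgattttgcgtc
Nop2 (chr6:125131683-125131882, plus strand): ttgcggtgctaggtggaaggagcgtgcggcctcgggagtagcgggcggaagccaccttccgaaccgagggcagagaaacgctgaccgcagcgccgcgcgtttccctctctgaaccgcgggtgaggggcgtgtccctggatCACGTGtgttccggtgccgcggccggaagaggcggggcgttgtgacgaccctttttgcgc

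CCAAT was present in 27.3% of the promoters of these genes against 37.9% of all, TATAAA in 9.09% against 14.2%, and GGGCGG, the core bound by Sp1, in 66.7% against 35.9%, each on both strands. At 12 h in 1A wild type, 5 of the 7 genes with CACGTG were lower and 2 higher than at 0 h (median log2 fold change -0.40), and 13 of the 26 without it were lower and 1 higher (median -0.16). At 96 h, 6 of the 7 with CACGTG and 20 of the 26 without it were lower, and none was higher (backgrounds 23.5% and 25.1%). The order of the medians was then the other way, -0.31 for genes with CACGTG and -0.43 for genes without it.

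Libraries held 2561169 to 11065948 assigned reads (median 6055990). Levels are given as CPM, read counts scaled to a common library total with TMM factors. Differences are log2 fold changes ± standard error from edgeR's quasi-likelihood test, with p-values adjusted over all 15083 genes by the Benjamini-Hochberg method, and calls are those with an adjusted p under 0.05. The targeted genes went with the labels, Ezh2 at 14.5 to 19.9 CPM in its knockout and 194 to 277.7 CPM in 1A wild type, and Eed at 15.3 to 28.2 CPM in its knockout and 246.1 to 393.4 CPM in 1A wild type. Several libraries stood apart from their groups, namely replicate 1 of 1A wild type at 24 h and some of V19 at 48 h and both knockouts at 12 h. Where such libraries were dropped, V19 at 48 h and both knockouts at 12 h were dropped whole. That took out replicate 2 of the EZH2 knockout at 12 h, which deviated least (root mean square 0.171 log2 units). Replicate 3 of 1A wild type at 48 h, the smallest library, was kept. It deviated by 0.343, against 0.305 for replicate 1 of 1A wild type at 24 h. With bulk RNA, fewer cells of a type and less RNA per cell cannot be told apart.

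In untreated 1A wild type the 40 genes took 2.06% ± 0.035 of all counts (SD, n = 3). Per kilobase of exon, the nucleolar chaperone Npm1 was the most abundant at 1037 ± 55.8 CPM per kb, ahead of Odc1 (538.4 ± 18.8), the rRNA-binding nucleolin Ncl (445 ± 28.0), the H/ACA protein Nhp2 (412.9 ± 12.4) and Srm (377.8 ± 9.1). Npm1 and Odc1 each stood clear of the next gene, while Ncl and Nhp2 overlapped within 1 SD. The lowest were Utp15 (30.9 ± 0.20) and Wdr12 (19.7 ± 0.96), members of the small-subunit and large-subunit machinery. Npm1 has processed pseudogenes that can take some of its reads, so its level is uncertain. The lowest count of any of the 40 genes in any library was 150 reads, for Nop10.

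In wild-type cells the genes fell within 12 h of 2i and stayed low. In 1A wild type, 23 of the 40 genes were lower and 3 higher at 12 h, against 20.8% and 20% of all genes tested, with a median log2 fold change of -0.29 where the median of all genes was 0.02. The counts were 28 lower at 24 h (background 22.4%), 24 at 48 h (26.2%) and 32 at 96 h (23.5%), with none higher at any of these times (backgrounds 24.0, 26.8 and 25.1%). The median reached -0.40 at 96 h. In V19, 24 were lower at 12 h (background 20.8%) and 1 higher (21.5%), then 33 at 24 h (19.4%), 32 at 48 h (24.2%) and 37 at 96 h (22.7%), again with none higher (21.0, 26.7 and 24.8%). The share of counts on the 40 genes went from 2.06% ± 0.035 to 1.63% ± 0.028 in 1A wild type and from 2.1% ± 0.024 to 1.59% ± 0.014 in V19 (0 h to 96 h, SD, n = 3). Most changes were under 2-fold. In 1A wild type, Heatr1, Srm and Polr1a were at least 2-fold lower at 48 h (background 9.93%) and Srm at 96 h (9.20%).

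**Figure D1:**
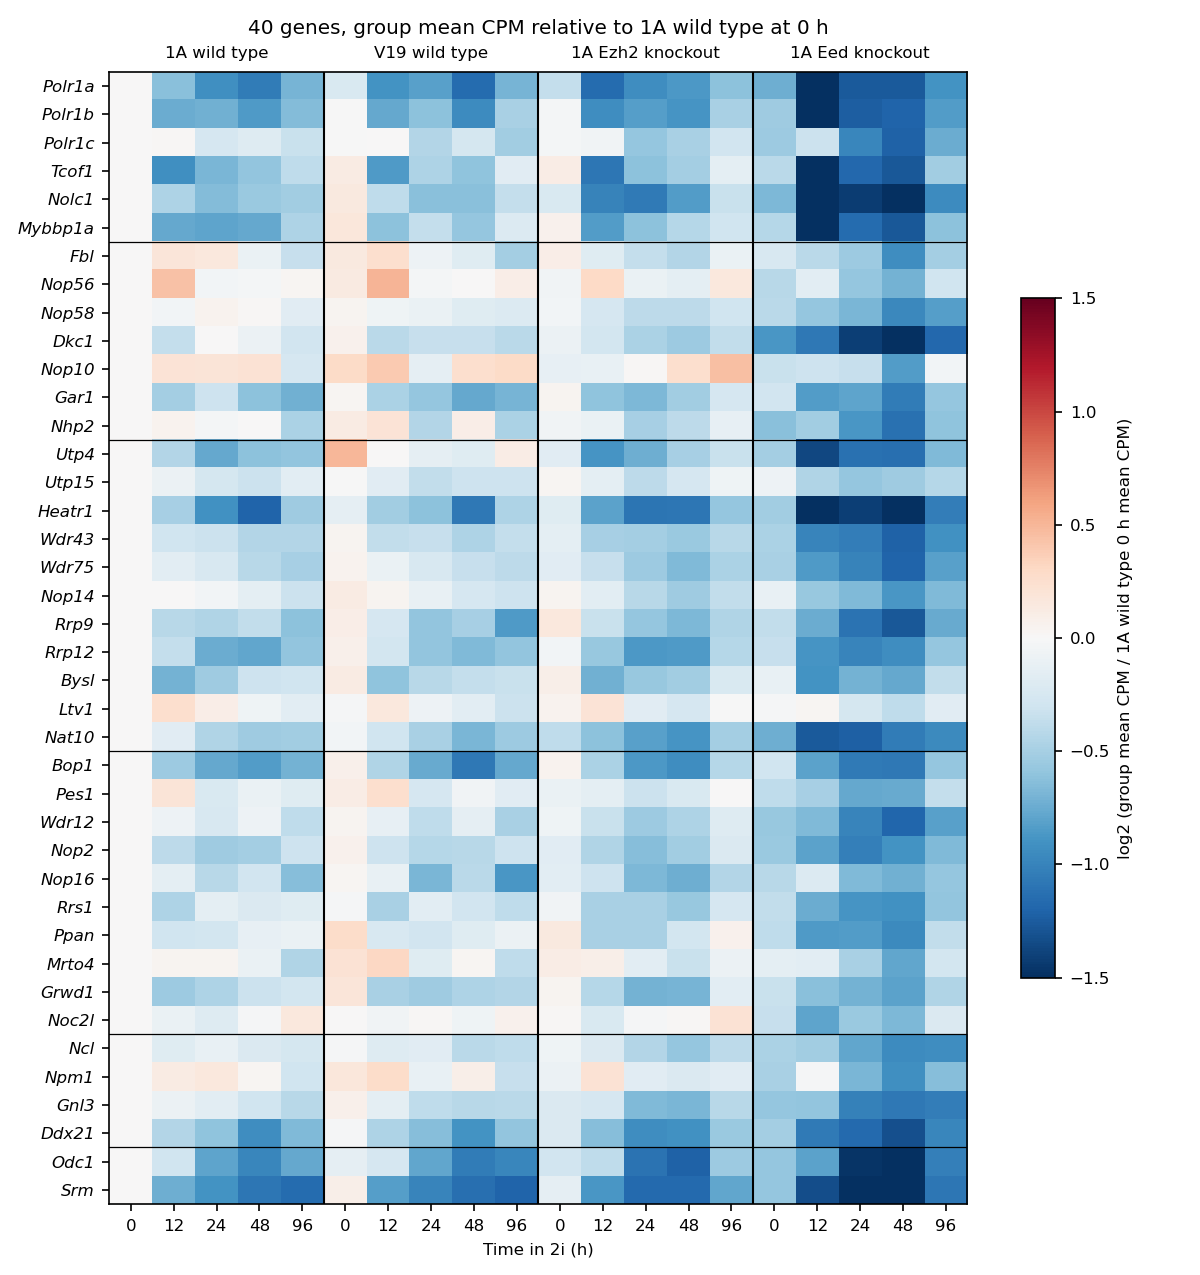
Log2 ratio of the group mean CPM to the mean of 1A wild type at 0 h, for the 40 genes (rows, by role) and the 20 groups (columns, by line and hours in 2i). Each cell averages 3 libraries, and colours are clipped at 1.5 log2 units on either side of 0. Nop56 and Pes1 are red at 12 h in both wild-type lines, and the 1A EED knockout is blue for nearly every gene already at 0 h.

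The fall was shared by the 4 lines, whose time courses have no library in common. At 12 h, 20 of the 40 genes were lower in all 4 lines, against 12.6% of all genes tested. At 24 h there were 26 (background 8.57%), at 48 h 24 (9.04%) and at 96 h 16 (7.08%). The 16 at 96 h were Polr1b, Dkc1, Gar1, Heatr1, Wdr43, Wdr75, Nop14, Rrp9, Rrp12, Bysl, Bop1, Ncl, Gnl3, Ddx21, Odc1 and Srm. At the other end, Nop10, an H/ACA protein, was called lower in no line at any time. Its estimates were imprecise, with a standard error of 0.28 for 96 h against 12 h in 1A wild type. Its group means ranged from 70.9% of the line's own 0 h (EED knockout, 48 h) to 149% (EZH2 knockout, 96 h). Nop56, a core box C/D protein, and Noc2l, which takes part in large-subunit export, were called lower in no line at 96 h and higher in at least 1.

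Both polyamine enzymes were among the strongest to fall. In 1A wild type, Odc1 stood at 1375, 1463 and 1381 CPM at 0 h, at 1056, 1164 and 1222 CPM at 12 h, and at 815.3, 897.6 and 767.2 CPM at 96 h. The 96 h libraries all lay below the 12 h libraries, which in turn lay below all those at 0 h. The difference from 0 h was -0.29 ± 0.10 at 12 h (adjusted p = 0.012), -0.99 ± 0.10 at 48 h (2.4e-12) and -0.77 ± 0.10 at 96 h (2.6e-09). The call at 12 h was lost without replicate 2 at 0 h (0.052) or replicate 1 at 12 h (0.092). Mean Odc1 at 12 h was 92.4% of its own 0 h in V19, 94.3% in the EZH2 knockout and 86% in the EED knockout. Odc1 in V19 went from 1268, 1246 and 1337 CPM to 719.9, 712.6 and 708.4 CPM at 96 h, again without overlap (-0.85 ± 0.10, adjusted p = 2.2e-10).

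Srm fell earlier and further. It was at 494.4, 515.7 and 495.1 CPM at 0 h in 1A wild type, at 299.9, 300.6 and 301.9 CPM at 12 h and at 215.5, 239.9 and 221.4 CPM at 96 h. No library at 12 h or 96 h came near the 0 h range. The difference was -0.74 ± 0.08 at 12 h (adjusted p = 7.9e-11) and -1.15 ± 0.08 at 96 h (2.3e-17), a 2.22-fold fall. Srm in V19 went from 554.2, 522.9 and 525 CPM to 208.2, 231 and 217.7 CPM at 96 h (-1.29 ± 0.08, adjusted p = 5.2e-19), also with no overlap.

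**Figure D2:**
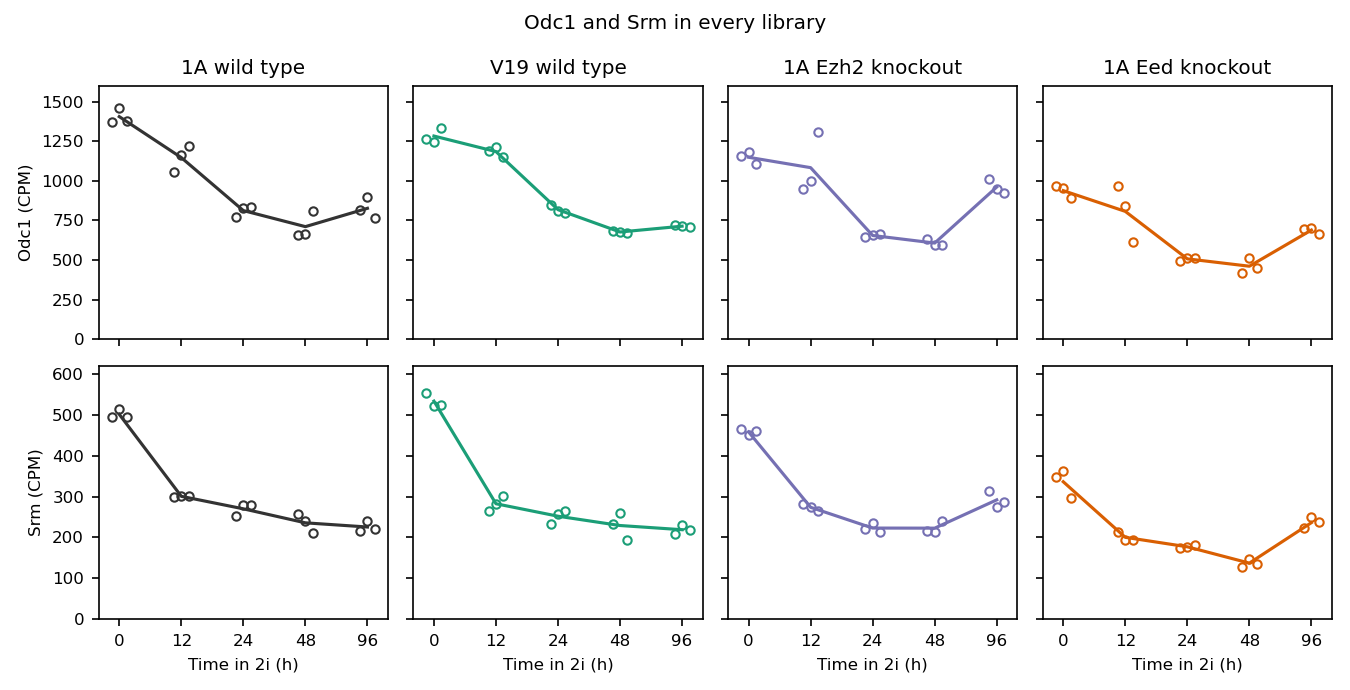
Odc1 (top) and Srm (bottom) in CPM, on linear axes from 0, by hours in 2i (times evenly spaced), with 1 panel per line. Each circle is a library and the line joins the means of 3 libraries. Srm in 1A wild type lies between 215.5 and 239.9 CPM at 96 h, and in both knockouts all circles at 96 h lie above those at 48 h for either gene.

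Other genes of polyamine metabolism did not move as a block. Of 19 on a list drawn up for comparison, 17 were tested, and 7 were lower and 5 higher in 1A wild type at 96 h (median -0.09). Sms, which makes spermine from spermidine, fell by 1.19 ± 0.12 on the log2 scale (adjusted p = 4.3e-12), from 86.8 ± 4.52 to 38.1 ± 5.67 CPM. Dhps, which uses spermidine to modify the translation factor Eif5a, was at -0.71 ± 0.11 (2.2e-07). Azin2, an antizyme inhibitor that stabilises ornithine decarboxylase, rose from 6.53 ± 1.35 to 13.8 ± 1.07 CPM (1.11 ± 0.18, adjusted p = 4.9e-07).

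Among the 6 genes of RNA polymerase I and its nucleolar cofactors, 5 were lower at 12 h in 1A wild type (median -0.68) and 6 at 96 h (median -0.49). Polr1b, the second-largest subunit of the polymerase, was at 219.5, 240.9 and 243.9 CPM at 0 h and at 143.1, 143 and 133.6 CPM at 12 h. At 96 h it was at 143.4, 153.3 and 151.6 CPM. Both later groups lay below the 0 h range, with differences of -0.75 ± 0.08 at 12 h (adjusted p = 2e-10) and -0.65 ± 0.08 at 96 h (4.1e-09).

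Tcof1, or treacle, which links the polymerase to precursor processing, had the largest fall of the 40 at 12 h in 1A wild type and then a partial return. It was at 422.3, 458 and 464.9 CPM at 0 h, at 255, 234.8 and 221 CPM at 12 h and at 319.6, 362.5 and 354.4 CPM at 96 h. The 96 h libraries lay between the other groups without touching either. The difference from 0 h was -0.92 ± 0.11 at 12 h (adjusted p = 1.9e-09) and -0.38 ± 0.11 at 96 h (0.0042), and Tcof1 was higher at 96 h than at 12 h in all 4 lines (0.54 ± 0.11 in 1A wild type, adjusted p = 8.2e-05). Mybbp1a, a nucleolar Myb-binding protein, and Bysl, needed for small-subunit maturation, also rose from 12 to 96 h in each line (0.30 ± 0.10 and 0.41 ± 0.06 in 1A wild type, adjusted p = 0.015 and 2.4e-07). Tcof1, Mybbp1a and Bysl were picked out after their values were seen.

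Nolc1, a nucleolar chaperone that binds snoRNPs and the polymerase, was at 612.5, 635.1 and 648.7 CPM at 0 h and at 422.3, 435.3 and 466.4 CPM at 96 h in 1A wild type. The groups did not overlap (-0.52 ± 0.08, adjusted p = 1.8e-07). Polr1c, a subunit shared with RNA polymerase III, was not called at 12 h (0.01 ± 0.10, adjusted p = 0.94).

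Of 12 further genes of RNA polymerase I on the comparison list, 6 were lower and 1 higher at 12 h, and 4 lower and 2 higher at 96 h. Rrn3, the initiation factor that recruits the polymerase to the promoter, was at -0.68 ± 0.07 at 12 h (adjusted p = 2.3e-12) and -0.54 ± 0.07 at 96 h. Within the promoter selectivity factor, Taf1a was lower (-0.52 ± 0.12, adjusted p = 0.00017) and Taf1b higher (0.47 ± 0.11, 0.00044) at 96 h.

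The 7 snoRNP proteins moved least as a group at first. At 12 h in 1A wild type 2 were lower and 1 higher (median 0.05), and at 96 h 4 were lower (median -0.29). Gar1, an H/ACA protein, went from 122.6, 119.9 and 116.2 CPM at 0 h to 70.67, 75.7 and 70.48 CPM at 96 h, without overlap (-0.73 ± 0.11, adjusted p = 3.1e-07). Dkc1, the pseudouridine synthase of the same particles, went from 378.7, 342.2 and 318.4 CPM to 285.1, 271.5 and 296.4 CPM, also without overlap (-0.29 ± 0.08, adjusted p = 0.004).

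Nop56 was the only snoRNP protein called higher at 12 h in 1A wild type. The means of Nop10, Fbl and Nhp2 were also above 0 h (115%, 113% and 104% of it), without a call. Those of Nop58, Dkc1 and Gar1 were below it. Nop56 was at 372.7, 393.4 and 362.1 CPM at 0 h in 1A wild type. It was at 485.6, 505.6 and 536.9 CPM at 12 h and at 381.5, 394.2 and 373.3 CPM at 96 h. All libraries at 12 h lay above all those at 0 and 96 h. The rise was 0.44 ± 0.06 at 12 h (adjusted p = 8.8e-09), and at 96 h the difference from 0 h was 0.03 ± 0.06 (0.74). Nop56 was chosen after its values were seen.

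In the small-subunit processome and 40S maturation group, 7 of 11 genes were lower and 1 higher at 12 h in 1A wild type (median -0.30), and 9 were lower at 96 h (median -0.50). Rrp12, an export and maturation factor, went from 238.2, 249.6 and 252.3 CPM at 0 h to 160.8, 175.8 and 154.5 CPM at 96 h (-0.59 ± 0.07, adjusted p = 8.1e-10). Nat10, the RNA acetyltransferase, went from 240.1, 251.7 and 263.5 CPM to 175.4, 194.1 and 157.7 CPM (-0.52 ± 0.07, adjusted p = 2.4e-09). Neither gene had overlapping groups.

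Rrp9, a U3 snoRNP protein, went from 314.7, 345.3 and 314.8 CPM at 0 h to 199, 224.4 and 211.6 CPM at 96 h in 1A wild type (-0.62 ± 0.09, adjusted p = 1.5e-07), without overlap. In V19 it was at 340.2, 356.6 and 345.8 CPM and then 188.6, 182.1 and 172 CPM (-0.94 ± 0.09, adjusted p = 2.9e-12). Utp4, of the early pre-18S complex, went from 280.4, 274.1 and 272.6 CPM to 173.5, 172.6 and 202.4 CPM in 1A wild type (-0.59 ± 0.12, adjusted p = 3.9e-05). The loss was without overlap in each case. The gene that was higher at 12 h was Ltv1 (0.25 ± 0.08, adjusted p = 0.0082), which acts late in small-subunit maturation.

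Of the 10 large-subunit (60S) assembly factors, 5 were lower and 1 higher at 12 h in 1A wild type (median -0.22), and 7 lower at 96 h (median -0.29). Bop1, of the PeBoW complex that processes the large-subunit precursor, went from 297.5, 308.7 and 305.7 CPM at 0 h to 203.5, 215.1 and 204.3 CPM at 12 h and 183, 193.4 and 182.8 CPM at 96 h. The 3 groups were separate, and the difference at 96 h was -0.71 ± 0.07 (adjusted p = 3.3e-13). Its partners in the complex were uneven. Pes1 was higher at 12 h (0.20 ± 0.07, adjusted p = 0.024) and lower at 96 h (-0.19 ± 0.07, 0.029), and Wdr12 was not called at 12 h (-0.08 ± 0.10, 0.54) and lower at 96 h (-0.38 ± 0.10, 0.00079). Nop16 went from 150.1, 163.8 and 135.3 CPM to 86.75, 100.3 and 102.2 CPM at 96 h, without overlap (-0.64 ± 0.13, adjusted p = 3.3e-05).

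All 4 abundant nucleolar proteins were lower at 96 h in 1A wild type (median -0.35), and 2 at 12 h. Ddx21, a helicase of the nucleolus, went from 894.4, 896.5 and 914.7 CPM at 0 h to 593.6, 578.5 and 542.4 CPM at 96 h, far from overlap (-0.66 ± 0.06, adjusted p = 1.3e-13). Gnl3, or nucleostemin, a GTPase abundant in stem cells, went from 359.7, 327.7 and 313.3 CPM to 261.7, 232.6 and 258.4 CPM, also without overlap (-0.41 ± 0.07, adjusted p = 1.2e-06).

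**Figure D3:**
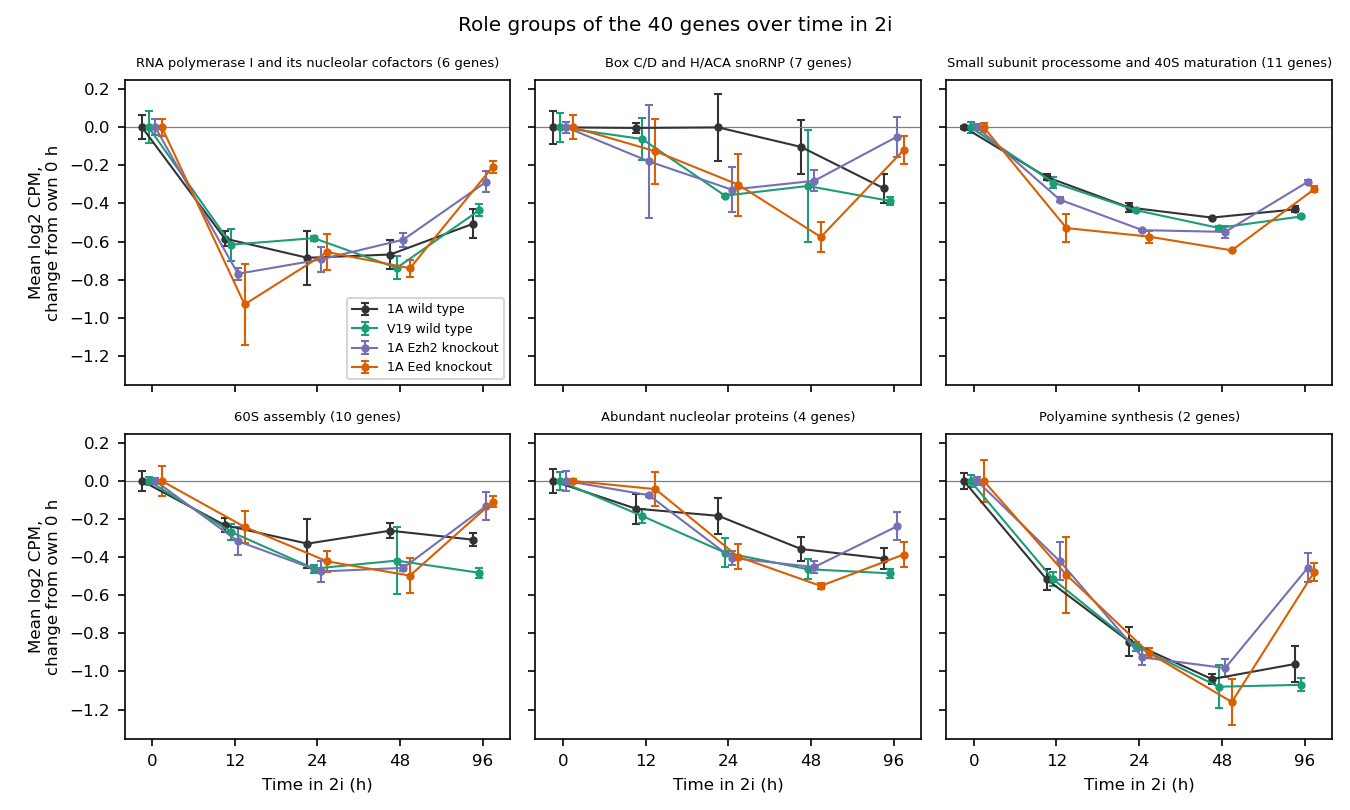
Mean log2 CPM of the genes of each role, as change from 0 h of the same line, by hours in 2i (times evenly spaced), with 1 panel per role and 1 line per cell line. Points are means of 3 libraries and bars are 1 SD. In 1A wild type the RNA polymerase I genes are at -0.58 by 12 h, while the snoRNP genes are near 0.

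Transcript length moved with the results. Over all genes in 1A wild type at 12 h, the shortest genes (up to 2586 exon bases) had a median change of 0.20 and the longest (from 4984 bases) of -0.12. Of the 40 genes, 8 of 17 among the shortest, 9 of 15 in between and 6 of 8 among the longest were lower, and the part of length in the result was not tested. At 48 h these medians over all genes were 0.28 and -0.20. At 96 h they were 0.07 and -0.01, and 12 of 17, 13 of 15 and 7 of 8 of the 40 genes were lower. Dropping the libraries that stood apart gave 24 lower and 4 higher at 12 h and 36 lower and 1 higher at 96 h. None of those libraries belongs to 1A wild type at 0, 12 or 96 h. The compared libraries thus stayed the same, and these counts do not bear on length or on single libraries of these groups.

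The wider ribosome biogenesis machinery moved as the 40 genes did, and the ribosomal proteins did not. Of 114 further biogenesis genes, 57 were lower and 3 higher at 12 h in 1A wild type (median -0.21), and 72 lower and 3 higher at 96 h (median -0.33). Examples at 96 h were Naf1, an H/ACA assembly factor (-1.09 ± 0.08, adjusted p = 2.5e-16), Rrp1b (-1.06 ± 0.09, 4.6e-14), Wdr36 (-0.73 ± 0.06, 2.2e-14) and Wdr74 (-0.83 ± 0.09, 8.6e-12), the last 3 being factors of pre-rRNA processing. Ddx27 (-0.61 ± 0.07) and the methyltransferase Ftsj3 (-0.57 ± 0.07) went the same way. Of 78 cytosolic ribosomal protein genes tested, 39 were higher and none lower at 12 h (median 0.43), 75 were higher at 48 h (median 0.76) and none was called by edgeR at 96 h (median -0.06; 1 lower and 1 higher at an unadjusted p under 0.05, and 1 called by DESeq2). In V19 at 96 h 11 of them were lower and 1 higher (median -0.30). Ribosomal protein transcripts are short, and the part of length in their change was not tested.

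**Figure D4:**
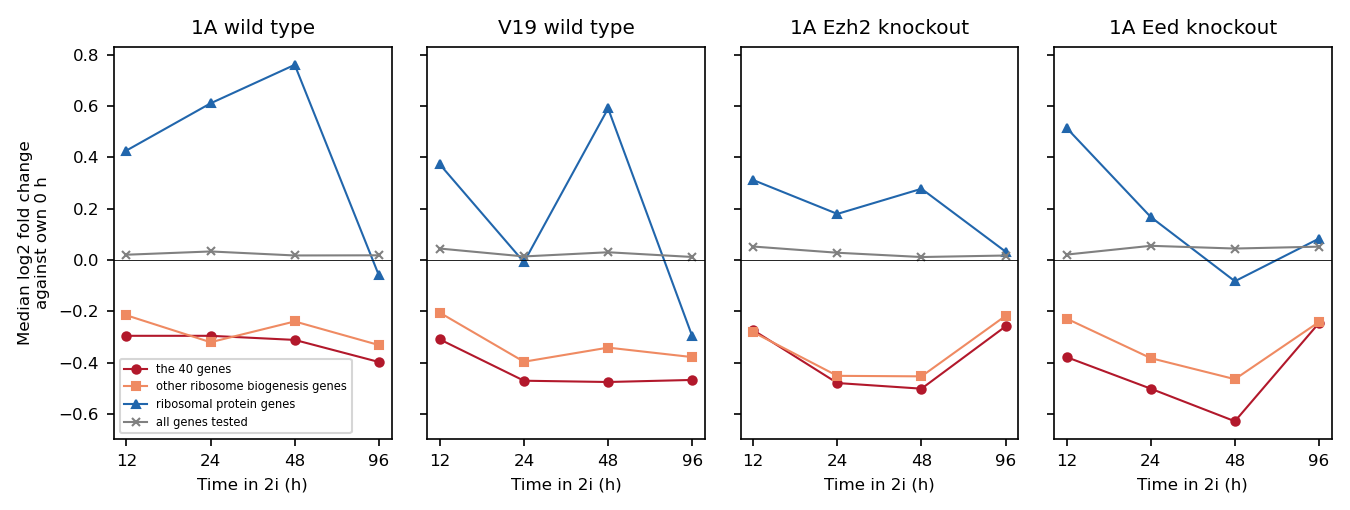
Median log2 fold change from 0 h of the same line, by hours in 2i (times evenly spaced), over the 40 genes, the 114 further biogenesis genes, the ribosomal protein genes and all genes tested, with 1 panel per line and no error bars. In 1A wild type the ribosomal protein genes are at 0.76 at 48 h and -0.06 at 96 h, while the 40 genes go from -0.31 to -0.40.

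Myc genes fell with the first samples in 2i. Myc was at 168.8 ± 4.26 CPM at 0 h, 10.6 ± 1.66 CPM at 12 h and 17.4 ± 2.08 CPM at 96 h in 1A wild type (SD, n = 3), a difference of -4.00 ± 0.12 at 12 h (adjusted p = 1.1e-32). Mycn went from 507 ± 25.2 to 196.2 ± 6.20 and then 123.5 ± 7.49 CPM (-2.04 ± 0.09 at 96 h, adjusted p = 2.7e-25). Mycl rose from 11.9 ± 2.79 to 33.2 ± 1.39 CPM at 96 h (1.499 ± 0.143, adjusted p = 7.5e-13). Of 12 genes of the Myc family and its partners, 7 were lower and none higher at 12 h. The part of Myc in the results was not tested. Of 20 proliferation genes, 2 were lower and 9 higher at 96 h in 1A wild type (median 0.11).

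Few differences were called between the 2 wild-type lines. At 0 h 2 of the 40 genes differed between V19 and 1A, both higher in V19 (background 5.01% higher and 5.53% lower), namely Ppan, a large-subunit factor (0.28 ± 0.09, adjusted p = 0.034), and Utp4. That count was 1 when any 1 library of either group was left out. Utp4 was at 404.1, 366.1 and 394.7 CPM in V19 against 280.4, 274.1 and 272.6 CPM in 1A, without overlap (0.49 ± 0.12, adjusted p = 0.0024). At 96 h Utp4 was the only one of the 40 called (0.71 ± 0.12, adjusted p = 2.9e-05, backgrounds 4.16% higher and 3.30% lower). Utp4 lies on chromosome 8 (107620272 to 107649726, GRCm39), where the median difference of all 812 tested genes between V19 and 1A was 0.40 at 0 h and 0.35 at 96 h. The part of that shift in the result for Utp4 was not tested. No gene of the 40 was called by edgeR for a different response to 2i between V19 and 1A at 12 or 96 h (backgrounds 0.119% and 1.68% in either direction), and DESeq2 also called none. At an unadjusted p under 0.05 there were 0 at 12 h and 3 at 96 h, all with a more negative response in V19.

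Without Eed the 40 genes were low before any 2i was added. In 1A EED knockout at 0 h, 33 of the 40 were lower than in 1A wild type and none higher (backgrounds 23.3% lower and 26.4% higher), with a median of -0.42 where the median of all genes was 0.0022. The knockout at 0 h gave these genes 1.6% ± 0.009 of its counts, close to the 1.63% ± 0.028 of 1A wild type after 96 h of 2i. Lower genes came from every role: 6 of 6 of RNA polymerase I, 5 of 7 of the snoRNPs, 7 of 11 of the small subunit, 9 of 10 of the large subunit, 4 of 4 nucleolar proteins and both polyamine enzymes. The further biogenesis genes did likewise, with 78 of 114 lower and none higher (median -0.37).

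Dkc1 differed most at 0 h. It was at 179.1, 192.5 and 196.3 CPM in 1A EED knockout against 378.7, 342.2 and 318.4 CPM in 1A wild type, with no overlap (-0.87 ± 0.09, adjusted p = 1.7e-12). Dkc1 is X-linked, and the median difference of the 544 tested genes of the X chromosome in this comparison was 0.0092. Nat10 was at 148, 148.5 and 156.5 CPM against 240.1, 251.7 and 263.5 CPM, also with no overlap (-0.74 ± 0.07, adjusted p = 8.1e-14).

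Both polyamine enzymes were low in the EED knockout as well. Odc1 was at 968.2, 957.8 and 889.3 CPM in the knockout at 0 h, below every untreated library of 1A wild type (-0.58 ± 0.10, adjusted p = 1.3e-06). Srm was at 348.2, 363.6 and 297.8 CPM, also below every untreated library of 1A wild type (-0.58 ± 0.08, adjusted p = 2.9e-08). Myc and Mycn were lower too, at 75.9 ± 9.15 and 151.4 ± 5.22 CPM. In 2i, mean Myc in this line was 9.47, 28.8, 44.7 and 14.45 CPM at 12, 24, 48 and 96 h. Mean Mycn was 83.8, 91.8, 102.5 and 113.4 CPM. Odc1 and Srm had their lowest means at 48 h in this line. In the EZH2 knockout at 0 h, mean Myc and Mycn were 145.7 and 237.4 CPM, against 168.8 and 507 CPM in 1A wild type. The part of Myc and Mycn in these results was not tested.

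With RLE size factors in place of TMM, 33 genes were again lower and none higher in the EED knockout at 0 h, but the direction turned with the RUV values. In the authors' other table, in which removal of unwanted variation (RUV) had been applied, the median of the 40 genes at 0 h was 0.05, with 1 gene called and that one higher, and at 96 h it was 0.26, with 22 called and all higher. In the same table the difference of Eed itself was -0.61 at 0 h (adjusted p = 1.3e-05, limma-trend) and -0.18 at 96 h (0.24), against -3.94 ± 0.12 and -4.09 ± 0.12 in the counts. The median change of the 40 genes from 0 h kept its sign at every time in every line in that table.

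Other cell types' markers moved in the same comparison. At 0 h all 10 markers of primitive endoderm were higher in the EED knockout than in 1A wild type, with a summed level of 4233 to 4426 CPM against 502 to 557 CPM. All 9 trophoblast markers tested were higher (1590 to 2083 against 274.9 to 325.6 CPM), with Prl3d1 at 0 in both groups. Of 10 markers of embryonic stem cells 6 were lower and 2 higher (4767 to 4989 against 6294 to 6484 CPM), and the sum of 10 fibroblast and feeder markers was 124.9 to 137.7 against 110.7 to 118.8 CPM. Of 20 proliferation genes 11 were lower and none higher (median -0.22). The part of these markers in the result was not tested.

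In 2i the genes fell further in the EED knockout, and were nearer to the start at 96 h than at 48 h. From its own 0 h, 25 genes were lower and 2 higher at 12 h (backgrounds 25.2% each way), 35 lower at 24 h (17.7%), 39 lower at 48 h (21.1%) and 21 lower at 96 h (16.4%), with none higher at these 3 times (23.4, 28.1 and 23.3%). The median was -0.63 at 48 h and -0.24 at 96 h, and 28 of the 40 genes had their lowest mean at 48 h. Srm in this line went from 348.2, 363.6 and 297.8 CPM at 0 h to 128.7, 147.9 and 134.9 CPM at 48 h and back to 222, 249.2 and 237.6 CPM at 96 h. The 3 groups were well separated. Odc1 was at 420.4, 510.5 and 450.4 CPM at 48 h and at 697.7, 703.5 and 665.8 CPM at 96 h. At 48 h 19 of the 20 proliferation genes were lower than at 0 h (median -0.52), and the summed trophoblast markers were at 4986 to 5619 CPM, and their part in the result was not tested.

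At 96 h, 22 of the 40 genes were lower in the EED knockout than in 1A wild type and none higher (backgrounds 24.4% and 30.9%), with a median of -0.27. Dkc1 again differed most, at 151.4, 160.1 and 149.4 CPM against 285.1, 271.5 and 296.4 CPM with no overlap (-0.89 ± 0.09, adjusted p = 9.1e-13), followed by Ncl (-0.67 ± 0.07), the box C/D protein Nop58 (-0.65 ± 0.08) and Gnl3 (-0.63 ± 0.07). Srm, by contrast, was not called (0.07 ± 0.08, adjusted p = 0.5). Primitive endoderm markers summed to 1796 to 1972 CPM against 764.3 to 849.9 CPM and trophoblast markers to 2719 to 2841 against 339.2 to 415.4 CPM, and their part was not tested.

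The EZH2 knockout started near wild type. At 0 h 5 of the 40 genes were lower than in 1A wild type and none higher (backgrounds 10.9% and 11.9%), with a median of -0.06. The count of lower genes was close to the background. Nat10 was at 192.4, 195.9 and 192 CPM against 240.1, 251.7 and 263.5 CPM, without overlap (-0.38 ± 0.06, adjusted p = 7.3e-06). The others were Odc1 (-0.29 ± 0.10), Nolc1 (-0.23 ± 0.08), Ddx21 (-0.22 ± 0.06) and Gnl3 (-0.22 ± 0.07). The count was 3 without replicate 2 of 1A wild type or replicate 3 of the knockout. Primitive endoderm markers, all 10 higher, summed to 915.5 to 993.1 CPM in this group, and their part was not tested. Against the EZH2 knockout, the EED knockout had 34 lower and none higher at 0 h (backgrounds 21.7% and 23.6%) and again 34 lower and none higher at 96 h (24.0% and 28.1%), and with the RUV values 2 and 10 were called, all higher.

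In 2i the 40 genes of the EZH2 knockout had their lowest median at 48 h (-0.50) and were nearer to the start at 96 h (-0.26). From its own 0 h, 27 were lower and 2 higher at 12 h (backgrounds 23.9% and 26.2%), 35 lower at 24 h (22.2%), 34 lower at 48 h (24.0%) and 20 lower and 2 higher at 96 h (20.7% and 22.2%). None was higher at 24 or 48 h (24.5 and 25.1%). No gene of the 40 had its lowest mean at 96 h in either knockout, against 17 in 1A wild type and 13 in V19. Srm in the EZH2 knockout was at 214.9, 213.4 and 240.1 CPM at 48 h and at 313.2, 275.7 and 287.4 CPM at 96 h. Odc1 was at 631.5, 591.7 and 597.5 CPM and then 1011, 947.1 and 925.9 CPM. The 96 h libraries were above all those at 48 h for both genes.

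At 96 h 3 genes were higher in the EZH2 knockout than in 1A wild type and none lower (backgrounds 6.56% and 6.65%), a count close to the background. They were Srm (0.37 ± 0.08, adjusted p = 0.00082), Bop1 (0.28 ± 0.07, 0.0017) and Gar1 (0.47 ± 0.11, 0.0024). Gar1 was at 111.3, 88.49 and 100.3 CPM against 70.67, 75.7 and 70.48 CPM, without overlap.

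The change from 12 to 96 h was also taken within each line, and its difference between lines was not tested. In 1A wild type 18 of the 40 genes were lower and 6 higher at 96 h than at 12 h (backgrounds 19.6% and 23.0%), and in V19 20 lower and 4 higher (22.8% and 25.4%). In the EZH2 knockout 5 were lower and 12 higher (18.8% and 21.4%), and in the EED knockout 9 lower and 14 higher (21.7% and 29.8%), close to the background there. The knockout libraries at 12 h are among those that stood apart, and no value without them was possible for these comparisons. Length moved with this change as well. Over all genes, the medians of the shortest and longest were -0.113 and 0.122 in 1A wild type and -0.251 and 0.243 in V19. They were -0.114 and 0.0689 in the EZH2 knockout and -0.193 and 0.235 in the EED knockout. The part of length was not tested.

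Differences of response between lines were tested as interaction terms. At 96 h the response of the EZH2 knockout was less negative than that of 1A wild type for 6 genes and more negative for none (backgrounds 5.42% and 6.76%). They were Srm (0.50 ± 0.11, adjusted p = 0.0012), Odc1 (0.51 ± 0.14, 0.0073), Nolc1 (0.41 ± 0.11, 0.0073), Nat10 (0.39 ± 0.09, 0.0019), Ddx21 (0.32 ± 0.08, 0.005) and Pes1 (0.30 ± 0.10, 0.044). For the EED knockout there were 8 (backgrounds 14.9% and 12.4%), a count not far above the background. They were led by Srm (0.64 ± 0.11, adjusted p = 1.4e-05) and Bop1 (0.42 ± 0.09, 0.00031), with Rrp12, Nat10, Polr1b, Gar1, Nop16 and Utp4. None was called the other way here, but 3 were when only the groups compared entered the fit (with 16 less negative) and 2 with a filter on a mean of at least 1 CPM (with 6). These 2 comparisons share the libraries of 1A wild type. The count of 8 fell to 4 without replicate 2 of 1A wild type at 0 h or replicate 1 of 1A wild type at 96 h. It was 5 without replicate 1 of 1A wild type at 0 h, replicate 2 or 3 of the EED knockout at 0 h, or replicate 3 of the EED knockout at 96 h.

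**Figure D5:**
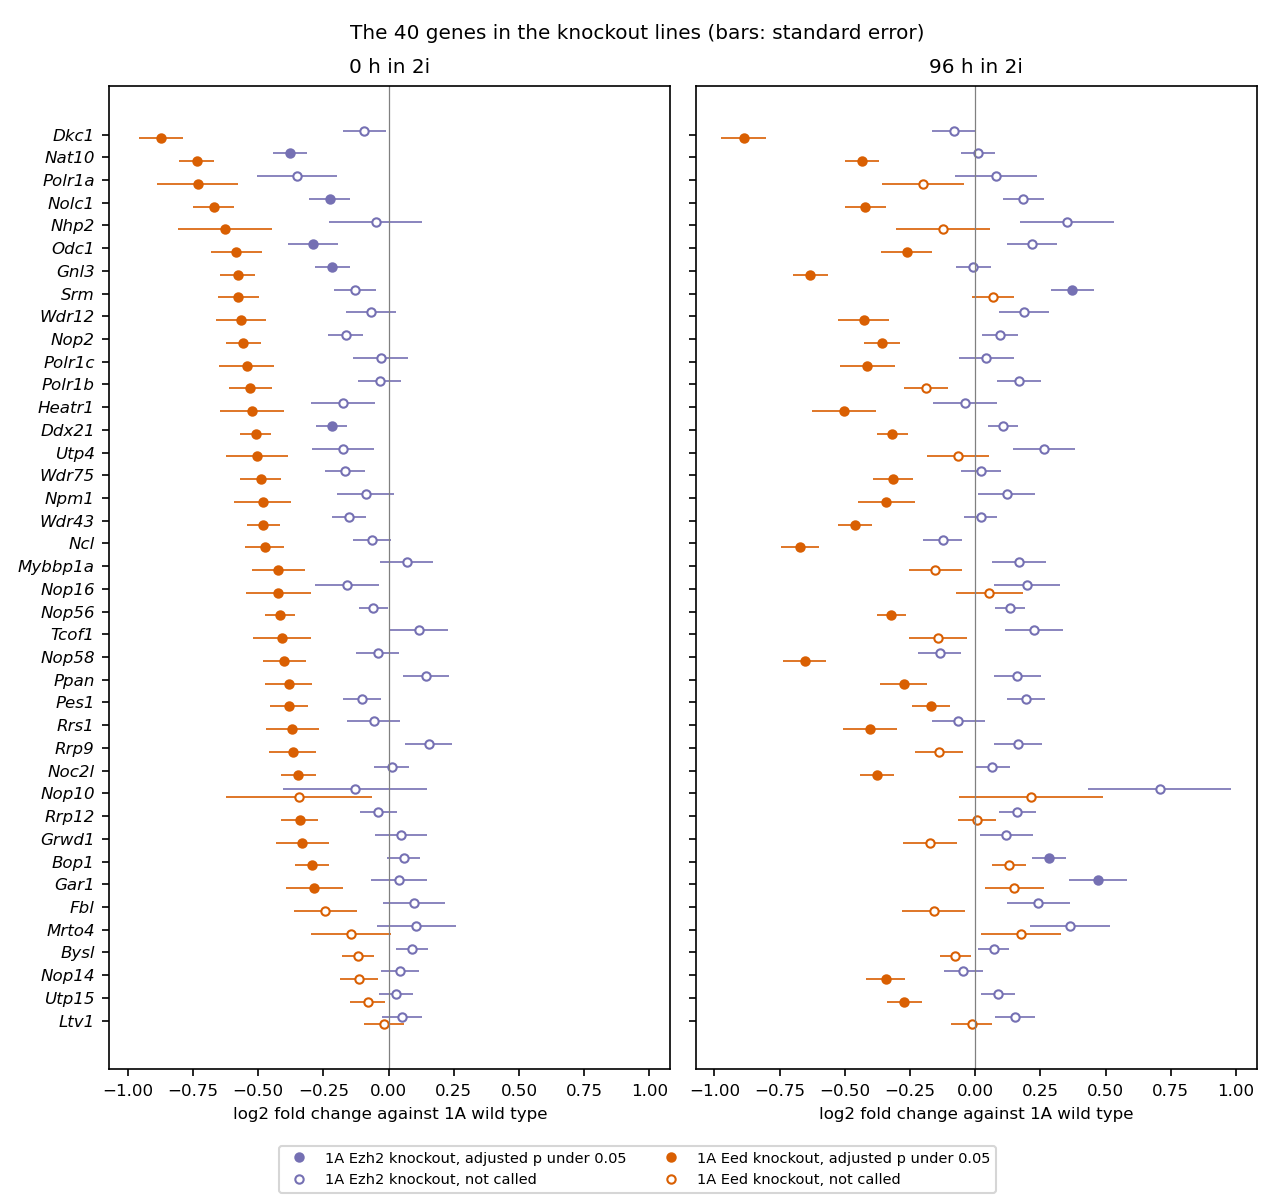
Log2 fold change of each of the 40 genes in either knockout against 1A wild type, at 0 h (left) and 96 h (right), with genes ordered by the EED knockout at 0 h. Bars are standard errors, and filled points have an adjusted p under 0.05. All points of the EED knockout lie below 0 at 0 h, and at 96 h Srm, Bop1 and Gar1 are the filled points of the EZH2 knockout.

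At 12 h the response of the EED knockout was more negative than that of 1A wild type for 7 genes and less negative for none (backgrounds 5.87% and 5.38%), namely Polr1b (-0.42 ± 0.12, adjusted p = 0.015), Nolc1, Nat10, Nop14, Utp15, Pes1 and Noc2l. Polr1b in that group was at 64.69, 77.84 and 73.57 CPM, against 168, 157.2 and 162.1 CPM at 0 h. Leaving out replicate 3 of the EED knockout at 12 h gave 13, leaving out replicate 1 gave 3, and leaving out replicate 1 of either 0 h group gave 4. At that time the median of the shortest genes over the whole table was 0.32 in the EED knockout and that of the longest -0.22, and the part of length was not tested. Neither edgeR nor DESeq2 called a gene for a different response between the EZH2 knockout and 1A wild type at 12 h (background 2.91% in either direction). At an unadjusted p under 0.05 there were 5, all more negative in the knockout, and edgeR called 3 without replicate 1 of the EZH2 knockout at 12 h.

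The 40 genes followed each other across the 20 groups. The correlation of each with the mean of the other 39, over group means, was from 0.56 (Ltv1) to 0.97 (Wdr43), as a description of 20 groups that share lines and scaling.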

How the data were processed

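RNA-seq was made from 60 libraries of 4 lines at 5 times with 3 biological replicates per group, per the labels. The authors deposited a table of raw counts. The submitters' processing notes name STAR 2.7.10b, featureCounts 2.0.3, MultiQC 1.14, DESeq2 and the build GRCm39 (mm39). The strand setting of the counting is not given in the sources used here. A second deposited table holds rounded scores, counts normalized by the authors by removal of unwanted variation (RUV), whose settings are not stated.

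The counts were fitted with edgeR 4.0.16 (R 4.3.3): filterByExpr (minimum count 10, minimum total 15), TMM factors, and the quasi-likelihood test over all 20 groups with 40 residual degrees of freedom. Standard errors were computed as the size of the log2 fold change divided by the square root of F. Each of 34 comparisons was adjusted over 15083 genes by the Benjamini-Hochberg method, and interaction terms tested differences of response. Levels are CPM by TMM. CPM per kb used the exon lengths of the count table. RUV scores were tested with limma 3.58.1 (trend) on log2(value + 1). DESeq2 1.42.0 was an alternative, with other filters, RLE size factors, a replicate block and left-out libraries.

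The members, their 6 roles and the 12 comparison lists (287 genes, 286 found) were chosen with earlier results of these data known. All 40 genes may be named. Values per library are given for Odc1, Srm, the 2 genes of each role with the smallest adjusted p in 1A wild type at 96 h, and the gene with the smallest adjusted p in each 96 h response and each 0 h comparison of lines. Of the lists, up to 3 genes each are named, and Tcof1 and Nop56 were added after their values were seen. Promoters come from RefSeq (GRCm38.p6), apart from the GRCm39 coordinates of the counts, and none was converted.

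On simulated counts for the 96 h comparison of 1A wild type (14210 genes), 53.0%, 80.0% and 86.0% of genes changed 1.5-, 2- and 4-fold were called, with 8 false calls of 149. For the 96 h response of the EED knockout against 1A wild type, 23.9%, 57.6% and 88.1% were called, with 5 false calls of 118. The simulated libraries had no shift with transcript length, and their spread depended on expression level alone. No 2 libraries of a group agreed within sampling noise (chi-square per degree of freedom 1.13 to 28.4 in 60 pairs). Deviations of libraries with the same replicate number correlated between -0.409 and 0.411 (median 0.000848). With different numbers the range was -0.488 to 0.452 (median -0.0016). No pairing by number was seen over the whole series, and pairing within single lines or times was not tested.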

Additional observations from a re-analysis of the deposited data

Results flagged for a closer look

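Each result here is a gene whose response to 2i differed between a knockout and 1A wild type by an interaction term (edgeR, adjusted over 15083 genes). The value is the log2 response of the knockout minus that of 1A wild type, and the comparisons share the 1A wild-type libraries.

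At 12 h the fall was deeper in the EED knockout for Polr1b (-0.419 ± 0.120, adjusted p = 0.015), Nolc1 (-0.384 ± 0.111, 0.016) and Nat10 (-0.355 ± 0.093, 0.0073). With no filter on low counts or with the RUV values, none of these 3 passed the test (adjusted p from 0.064 to 0.15). Polr1b also lost its call without replicate 1 of 1A wild type at 0 h (0.056) or replicate 1 of the EED knockout at 12 h (0.068). Nolc1 lost it without replicate 1 of the EED knockout at 0 h (0.054) or replicate 1 or 2 at 12 h (0.1 and 0.088). With only the groups compared in the fit, Nolc1 (0.14) and Nat10 (0.063) lost it too.

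At 96 h the fall was shallower in the EZH2 knockout for Odc1 (0.509 ± 0.136, adjusted p = 0.0073), Srm (0.503 ± 0.113, 0.0012), Nolc1 (0.411 ± 0.110, 0.0073), Nat10 (0.392 ± 0.092, 0.0019) and Ddx21 (0.324 ± 0.084, 0.005). With no filter on low counts Nolc1 (0.077), Nat10 (0.14) and Ddx21 (0.26) were not called.

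At 96 h it was shallower in the EED knockout for Srm (0.644 ± 0.114, adjusted p = 1.4e-05), Nop16 (0.477 ± 0.179, 0.04), Utp4 (0.441 ± 0.168, 0.043), Gar1 (0.434 ± 0.158, 0.033), Bop1 (0.425 ± 0.092, 0.00031), Rrp12 (0.347 ± 0.101, 0.0069), Polr1b (0.341 ± 0.118, 0.025) and Nat10 (0.302 ± 0.093, 0.011). The count of these calls was not far above the background, 14.9% of all genes tested, and several of them rest on single libraries. Utp4 kept its call only without replicate 3 of 1A wild type or replicate 2 of the EED knockout at 96 h, and lost it without any other 1 library of the 4 groups (adjusted p from 0.058 to 0.098). Nop16 lost it without replicate 1 or 2 of 1A wild type at 0 h, replicate 1 at 96 h, or replicate 2 or 3 of the EED knockout at 0 or 96 h (0.056 to 0.12). Gar1 lost it without replicate 1 or 2 of 1A wild type at 0 h, replicate 1 or 3 at 96 h, replicate 3 of the EED knockout at 0 h, or replicate 2 or 3 at 96 h (0.052 to 0.11). Polr1b lost it without replicate 2 or 3 of 1A wild type at 0 h, replicate 1 at 96 h, or replicate 2 of the EED knockout at 0 or 96 h (0.053 to 0.069), and Nat10 without replicate 3 of 1A wild type at 96 h (0.06). With no filter on low counts Polr1b (0.13), Rrp12 (0.12) and Nat10 (0.22) were not called. With a mean of at least 1 CPM neither Nop16 (0.054) nor Utp4 (0.063) was called, and Nop16 was not called with the RUV values (0.054).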

How the results depend on the processing

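RLE size factors and the replicate block each left the count of the 40 genes called within 1.5 times in 34 of 34 comparisons. With only the groups compared in the fit, the count went from 21 to 35 for the EED knockout at 96 h against 0 h, from 17 to 10 for the EZH2 knockout at 96 h against 12 h, from 2 to 4 for V19 and from 5 to 14 for the EZH2 knockout against 1A at 0 h, and from 3 to 6 for the EZH2 knockout at 96 h. For V19 against 1A at 96 h it went from 1 higher to 9, 5 of them lower. For the responses it went from 7 to 2 (EED knockout, 12 h), 0 to 3 (V19, 96 h), 6 to 12, all less negative (EZH2 knockout, 96 h), and 8 to 19, with 3 more negative and 16 less negative (EED knockout, 96 h). Without a filter the counts were 1 (V19, 0 h), 3 (EZH2 knockout, 0 h), 2 (V19, 96 h), 5 (EZH2 knockout, 96 h), 4 (EED response, 12 h) and 3 (EZH2 response, 96 h). A mean of at least 1 CPM gave 12 for the EED response at 12 h and, at 96 h, 8 of which 2 were more negative, and DESeq2 gave 8 for the EZH2 knockout at 0 h.

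RUV values gave 1 (V19, 0 h), 2 (EZH2 knockout, 0 h), 1 (EED knockout, 0 h) and 22 (EED knockout, 96 h), the last 2 all higher where the counts gave lower. Against the EZH2 knockout the EED knockout had 2 at 0 h and 10 at 96 h, all higher. The EED responses had 1 at 12 h and 13 at 96 h. Under RUV the EED knockout was called higher than 1A wild type at 96 h for Odc1 (0.349), Nolc1 (0.406), Nat10 (0.227) and Ddx21 (0.23). Their limma-trend adjusted p was 0.0076, 0.00014, 0.0072 and 0.0033. Dkc1 (0.126) and Gnl3 (0.0207) changed sign there without a call. So did Nolc1 (0.0443), Gar1 (0.00796), Dkc1 (0.00599), Rrp9 (0.118) and Utp4 (0.158) at 0 h. The adjusted p of these uncalled values was 0.34 to 0.98. RUV moved the median of all genes by 0.103 in EED against EZH2 knockout at 96 h, from -0.0425 to 0.0605.

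Without the libraries that stand apart the counts were 9 (EZH2 knockout, 0 h), 6 (V19, 96 h, 2 lower and 4 higher) and 11 (EZH2 knockout, 96 h). For responses at 96 h they were 1 (V19), 12 (EZH2 knockout) and 17 (EED knockout, 3 more negative and 14 less negative). No dropped library belongs to the groups of these comparisons, whose own libraries stayed the same. What changed was the filter, scaling and spread shared with the other groups. A further 7 comparisons had no value. Leaving out 1 library gave 1 to 1 for V19 at 0 h, 3 to 4 for the EZH2 knockout at 0 h, 0 to 3 and 3 to 13 for the 12 h responses of the EZH2 and EED knockouts, and 4 to 8 for the 96 h response of the EED knockout. An arm left with 2 libraries shared the spread of the other groups. Library totals in place of TMM moved the median CPM of the 40 genes at 0 h from 285.4 to 279.8 (1A), 308.9 to 295 (V19), 272.7 to 263.3 (EZH2 knockout) and 197.5 to 209.8 (EED knockout). It moved from 216.6 to 203.4 in 1A at 48 h, 262.4 to 257 and 214.6 to 210.1 in V19 at 12 and 24 h, and in the EED knockout 157.3 to 168.1, 141.3 to 150.3, 128.3 to 136.6 and 171.8 to 181.6 at 12, 24, 48 and 96 h. Single genes were followed only where a named gene was already called, a choice that favours stable values. Of these values, 1840 of 1962 with a library left out and 2326 of 2435 under other settings stayed called in the same direction. Of 505 medians of the 40 genes under all settings, 130 moved by at least the SD among replicates of the first group compared. The cause of these shifts was not tested.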
